A study of Mus musculus with 36 samples.

Results

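Messenger RNA of the medial entorhinal cortex (MEC) was compared between foot-shocked mice, the group labelled fear, and mice that stayed in the home cage. The libraries were chosen by their tissue and treatment labels alone: 3 of MEC after fear and 3 of MEC from the home cage, which is 6 of the 36 libraries of the series. The other libraries came from MEC of mice exposed to a context (3) and from the lateral entorhinal cortex (LEC) and the hippocampal fields CA1 and CA3 under the same 3 conditions. All mice were wild type (WT) of the BL-6 background, carried no transgene by the labels, were housed singly and were accustomed to the handler for 3 minutes a day over 5 days, home cage mice included. Tissue was taken 90 minutes after the behaviour. The labels give no age or sex and do not tie a library to 1 mouse or to a pool, and libraries of different regions may come from the same mice, so the p-values below measure the spread between these libraries.

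The MEC holds grid cells and other spatially tuned neurons, and its superficial layers send the perforant path to the dentate gyrus and the hippocampal fields. In neurons, synaptic activity and calcium entry first switch on transcription factors such as Fos and the Egr family within minutes, and these are followed by effector genes such as Bdnf that act at synapses. Stress hormones released by a shock act on the same cells through the glucocorticoid receptor, which has its own set of target genes. Ion channels, vesicle proteins and neurofilaments set how fast an axon can fire and how long it stays able to release transmitter.

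Of 16314 genes tested, 1559 (9.56%) passed edgeR's quasi-likelihood test at a Benjamini-Hochberg adjusted p under 0.05, which is what "called", "rose" and "fell" mean throughout. There were 926 rises (5.68%) and 633 falls (3.88%), and 118 rises and 100 falls were at least 2-fold. In 5128 genes (31.4%) the 3 fear values did not overlap the 3 home cage values, and this held for 1547 of the 1559 called genes. The median change of all genes was −0.015 on the log2 scale. Called genes that rose were long, with a median gene span of 57.9 kb against 24.8 kb for those that fell and 22.8 kb for all tested genes. Among the fifth of genes with the shortest span 2.2% rose, and among the fifth with the longest span 12.2% rose, while 3.81% and 3.72% of them fell.

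**Figure D1:**
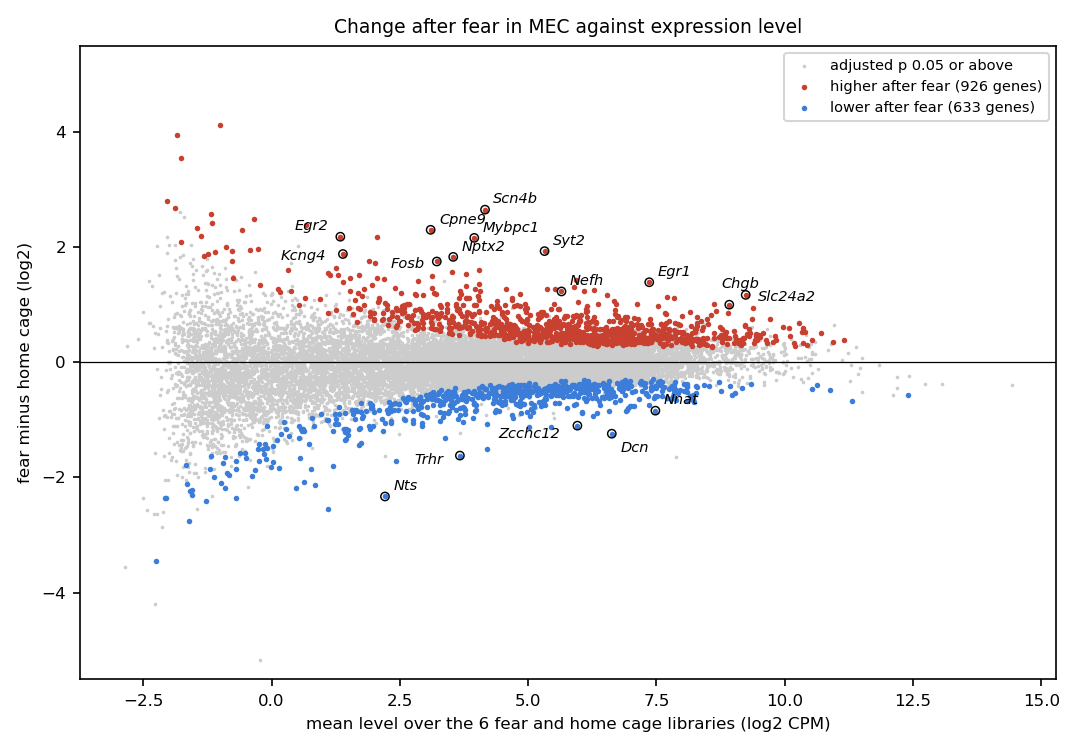
Change after fear in MEC (fear minus home cage, log2, vertical axis) of each of the 16314 tested genes against its mean level (log2 CPM, horizontal axis), with called genes coloured by direction. The 926 rises (red) and 633 falls (blue) spread over a wide range of levels, and Scn4b is the highest of the labelled rises at 2.65.

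The libraries were of unequal weight in these calls. Fear libraries held 25530671, 28073465 and 30354060 counts and home cage libraries 27433149, 29028061 and 68974340, so home cage 3 was the deepest. On the first principal component of the 9 MEC libraries (32.5% of the variance) fear lay at 16.1, 34.6 and 32.8. Home cage lay at −41.2, −32 and 3.1, so home cage 3 stood apart from its group, towards fear. Context lay at −15.3, −8.32 and 10.3, and there too library 3 was the nearest to fear. Leaving out home cage 3 gave 4486 called genes, and leaving out fear 2 or fear 3 gave 415 or 306. Leaving out fear 1, home cage 1, home cage 2 or context 2 gave 958, 682, 504 or 1025. A set of 258 genes (217 rises, 41 falls, 1.58% of those tested) was called whichever of the 9 libraries was left out, and genes described below belong to it unless a library is named.

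Oligodendrocyte markers also differed between the groups. The summed level of 10 such markers was 2433, 3383 and 3159 CPM (counts divided by the library's total, times 1e6) after fear and 2381, 1693 and 1665 CPM in the home cage. With the mean log2 CPM of these markers (6.47 to 6.89 after fear, 5.83 to 6.46 in the home cage) as a covariate, 171 genes were called, 122 of them among the 1559. Over the 1559 genes the median absolute change was 0.645 with the covariate and 0.572 without, and the median standard error was 0.214 and 0.133. With all 36 libraries and all 4 regions in 1 fit, which then share 1 estimate of the spread, 239 genes were called.

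Immediate-early transcription factors rose in MEC after fear. Of 28 rapid activity-regulated genes tested, 12 rose, where 5.68% of all tested genes rose, and none fell, with a median change of 0.48 against −0.015 for all genes. The shares over all tested genes, 5.68% for rises and 3.88% for falls, belong beside each list count of this fit below. These shares do not allow for gene span, and 2.2% of the fifth with the shortest span rose against 12.2% of the longest. Egr1, a zinc-finger factor of the EGR family, was at 245, 315 and 234 CPM after fear and at 110, 97 and 105 CPM in the home cage. The groups did not overlap, and the rise was 1.39 ± 0.12 (log2, standard error; adjusted p = 6.13e-05). Fosb, an AP-1 subunit, was at 15.5, 22.2 and 13.4 CPM after fear and at 6.31, 4.31 and 5.05 CPM in the home cage, a rise of 1.75 ± 0.20 (adjusted p = 0.000349). Its partner gene Fos was at 22, 29.2 and 21.6 CPM against 13.1, 11.5 and 9.22 CPM, a rise of 1.15 ± 0.16 (adjusted p = 0.0014). In all 3 genes fear 2 was the highest library, and the lowest fear library stayed above the highest home cage library.

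The other EGR genes and Arc followed the same order of groups. Egr2 was low, at 3.84, 7.69 and 4.51 CPM after fear and 1.2, 1.83 and 0.754 CPM in the home cage, a rise of 2.18 ± 0.34 (adjusted p = 0.00302). Egr3 rose by 1.60 ± 0.23 (adjusted p = 0.00232), from 7.07, 9.06 and 13.4 CPM to 24.3, 38.8 and 25 CPM. Ier5, an immediate-early gene of the serum response, was at 36.8, 46.2 and 46.4 CPM after fear and 20.3, 18.7 and 19.4 CPM in the home cage (1.19 ± 0.12, adjusted p = 0.000146). Arc, which encodes a capsid-forming protein of dendrites, was described after its values were seen. It was at 75.9, 140 and 88.3 CPM after fear and 42.8, 33.5 and 39.8 CPM in the home cage, a rise of 1.43 ± 0.22 (adjusted p = 0.00351). Npas4, a transcription factor induced by calcium entry and also picked after its values were seen, was at 16.3, 17 and 12.5 CPM against 18.8, 10.3 and 21.6 CPM and was not called (−0.12 ± 0.23, adjusted p = 0.764). Its groups overlapped fully, in contrast to the genes above.

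Promoter sequences of some members that rose, Egr1 not among them, are shown because transcription factors of this list bind such regions. In windows of 300 bases (250 before and 50 after the start of transcription in RefSeq, GRCm38.p6), both strands were searched for the EGR site GCGNGGGCG, the cyclic AMP response element TGACGTCA, the AP-1 site TGANTCA and the CArG box. Of the 12 rapid genes that rose, 8 had a window, and 3 of these (37.5%) held the EGR letters, 1 (12.5%) the CArG box and 0 the others. The EGR letters stood in 12% of the 11959 tested genes with a window and in 18.2% of the 148 such genes among the 217 steady rises. The CArG box stood in 1.66% and 2.7%, the response element in 3.29% and 2.03%, and the AP-1 site in 6.35% and 5.41%. A match describes letters only. The bases before the start, without annotated exons, read 5′ to 3′ as follows, with matches in capitals, for Egr2 (chr10:67537719-67537868, plus strand, before the third of 5 RefSeq starts and inside the gene's span, a CArG box), Fosb (chr7:19310052-19310195, minus strand, an EGR site), Fos (chr12:85473740-85473889, plus strand) and Vamp1, a vesicle gene described below (chr6:125215431-125215550, plus strand).
Egr2: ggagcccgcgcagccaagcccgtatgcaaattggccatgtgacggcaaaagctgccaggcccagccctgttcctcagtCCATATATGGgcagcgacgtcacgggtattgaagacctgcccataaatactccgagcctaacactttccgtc
Fosb: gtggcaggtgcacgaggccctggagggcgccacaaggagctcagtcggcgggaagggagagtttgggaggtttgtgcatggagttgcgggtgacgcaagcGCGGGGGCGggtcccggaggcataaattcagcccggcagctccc
Fos: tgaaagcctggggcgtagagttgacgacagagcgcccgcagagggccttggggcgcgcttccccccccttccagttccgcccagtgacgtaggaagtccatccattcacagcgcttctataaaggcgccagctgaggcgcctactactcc
Vamp1: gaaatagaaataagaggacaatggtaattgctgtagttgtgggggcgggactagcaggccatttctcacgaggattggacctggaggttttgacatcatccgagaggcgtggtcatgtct

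Leaving out 1 library kept the count of rapid genes that rose between 9 and 14. With the oligodendrocyte covariate Egr1 and Ier5 kept their call, and the adjusted p of Egr2, Egr3, Fos, Fosb and Arc was 0.0583 to 0.169. In the fit of 36 libraries the adjusted p was 0.084 for Egr2, 0.0951 for Fos and 0.0865 for Arc, and with the replicate number as a block and offsets for GC content and length it was 0.0524 for Arc.

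**Figure D2:**
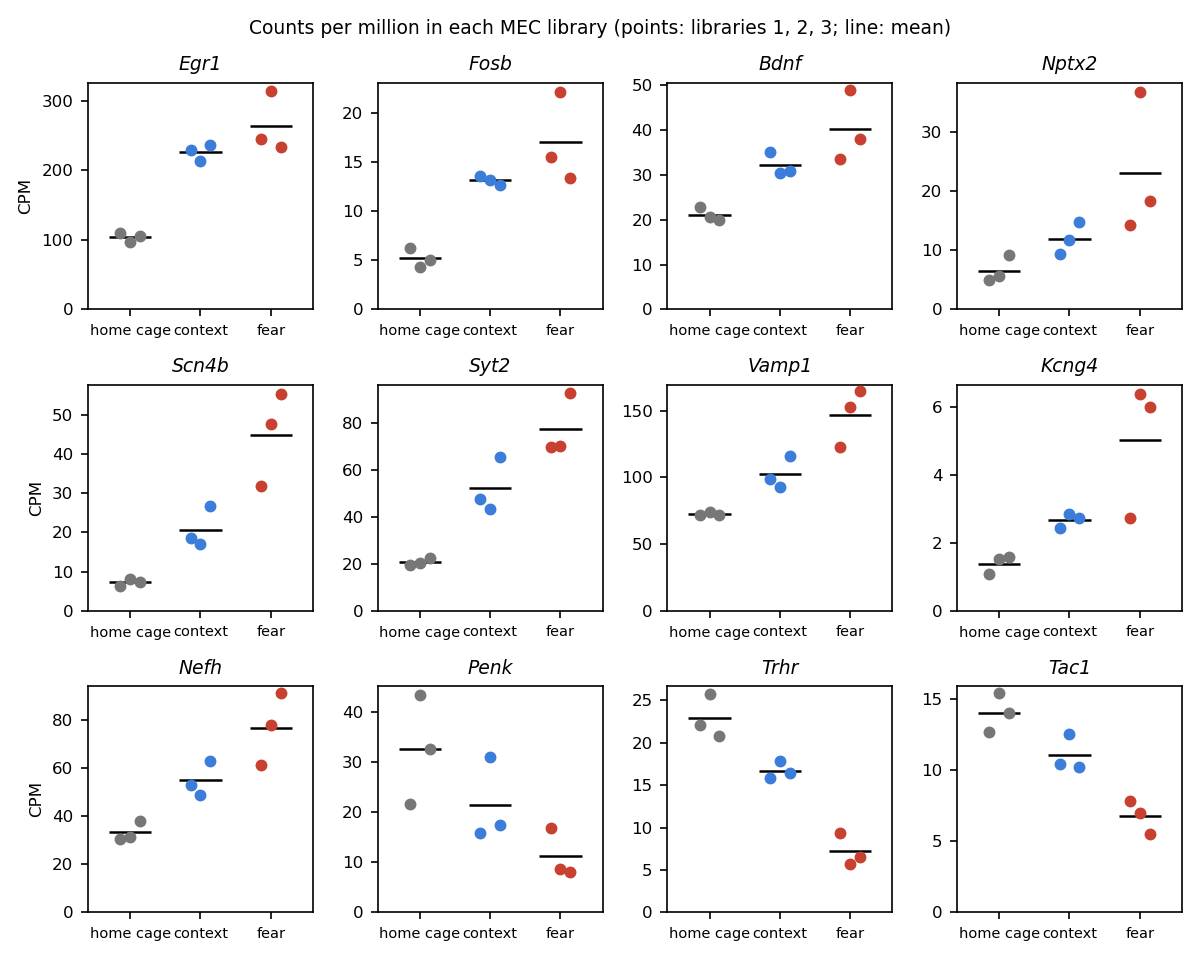
CPM (linear scale from 0, vertical axis) of 12 genes in the 3 home cage (grey), 3 context (blue) and 3 fear (red) libraries of MEC, 1 point a library and 1 line for each group mean. Egr1, Fosb, Scn4b and Syt2 show 3 fear points above all 3 home cage points, and Trhr shows 3 fear points below them.

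Delayed activity-regulated genes, among them effectors that act at synapses, rose as well. Of 32 delayed activity-regulated effectors, 15 rose and none fell, with a median change of 0.57. Lists share members: Bhlhe40 is also counted with the clock genes below, Kcna1 with the potassium channels and Nefm with the neurofilaments. Bdnf, the neurotrophin, was at 33.6, 49 and 38 CPM after fear and 22.8, 20.6 and 19.9 CPM in the home cage (0.97 ± 0.14, adjusted p = 0.0016). Nptx2, a secreted pentraxin that clusters AMPA receptors, was at 14.2, 36.6 and 18.3 CPM against 4.88, 5.65 and 9.13 CPM (1.83 ± 0.33, adjusted p = 0.00718). Both genes were highest in fear 2, without overlap of the groups. Homer1, a postsynaptic scaffold with a short activity-induced form, was at 191, 248 and 155 CPM against 103, 108 and 90.2 CPM (1.02 ± 0.16, adjusted p = 0.00315). These counts do not separate its short from its long form. The context libraries, which share these home cage controls, had a Homer1 mean of 215 CPM, above the fear mean of 198 CPM. For Egr1 the context mean was 226 CPM and the fear mean 265 CPM. The part of the shock in these rises was not tested.

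Bhlhe40, a transcriptional repressor that also acts on the circadian clock, was at 116, 161 and 136 CPM after fear and 56, 65.4 and 69 CPM in the home cage (1.16 ± 0.12, adjusted p = 0.000187). It was called in every setting tried. Cdkn1a, which encodes the cell cycle inhibitor p21 and is also on the glucocorticoid list, rose by 1.50 ± 0.25 (adjusted p = 0.00458), from 4.16, 5.99 and 6.15 CPM to 9.67, 21.4 and 13.9 CPM. The count of effectors that rose was 10 to 17 with 1 library left out, and it was 10 without context 2, fear 2, fear 3 or home cage 2. Under the oligodendrocyte covariate the adjusted p of Bdnf, Nptx2, Homer1 and Cdkn1a was 0.088 to 0.19, and without a filter on low counts that of Nptx2 was 0.0589.

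Inhibitors of MAP kinase signalling, glucocorticoid-responsive genes and clock genes moved mostly upwards. Of 16 MAP kinase phosphatases and Sprouty-type inhibitors, 7 rose and none fell (median 0.42). Dusp4, a nuclear phosphatase of ERK, was at 10.8, 15.2 and 14.6 CPM after fear and 5.1, 5.51 and 7.34 CPM in the home cage (1.20 ± 0.18, adjusted p = 0.00189). Dusp6, its cytoplasmic counterpart, rose by 0.79 ± 0.13 (adjusted p = 0.00393), Dusp3 by 0.66 ± 0.11 (adjusted p = 0.00302) and Spred2, a membrane inhibitor of Ras signalling, by 0.52 ± 0.10 (adjusted p = 0.00772). The fear and home cage values of these 4 genes did not overlap. The count that rose was 4 without fear 3 and 9 without home cage 3.

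Of 23 glucocorticoid-responsive genes, 9 rose and 1 fell (median 0.40). Zbtb16, a zinc-finger repressor, was at 77.3, 82.2 and 73.6 CPM after fear and 46.7, 44.1 and 47.9 CPM in the home cage (0.79 ± 0.10, adjusted p = 0.000881). Klf9, a Krüppel-like factor, was at 160, 170 and 157 CPM against 106, 101 and 102 CPM (0.69 ± 0.10, adjusted p = 0.00189). Tsc22d3, which encodes the glucocorticoid-induced leucine zipper, rose by 0.74 ± 0.13 (adjusted p = 0.00583). Sgk1, a kinase induced by corticosteroids and described after its values were seen, was at 55.8, 79.9 and 55.6 CPM against 26.4, 28.4 and 27 CPM (1.27 ± 0.23, adjusted p = 0.00847). Libraries of each group lay close together in Zbtb16 and Klf9, whereas fear 2 was the highest for Sgk1. The list also holds genes that respond to neuronal activity, such as Cdkn1a and Per1.

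Of 19 clock genes, 7 rose and none fell (median 0.31). Per1, a repressor of the clock, was at 77, 95.1 and 91.6 CPM after fear and 48.5, 60.3 and 60.9 CPM in the home cage (0.68 ± 0.13, adjusted p = 0.0079). Hlf, a PAR-type bZIP factor, rose by 0.55 ± 0.10 (adjusted p = 0.00719) and Rora, a nuclear receptor, by 0.54 ± 0.11 (adjusted p = 0.0092). The labels give no time of day, so a difference in collection time cannot be told apart from the treatment. The count of clock genes was 4 without fear 2 or home cage 2 and 10 without home cage 3. With the covariate, Dusp3, Dusp4, Dusp6, Spred2, Zbtb16, Klf9, Tsc22d3, Sgk1, Per1, Hlf and Rora were at adjusted p values of 0.0643 to 0.255. With all 36 libraries Per1, Hlf and Rora were at 0.0765 to 0.215, with GC and length offsets Per1 was at 0.066, and without a filter Sgk1 was at 0.0612.

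Several subunits of voltage-gated channels rose in MEC after fear. Scn4b, a sodium channel beta subunit that speeds recovery from inactivation (ENSMUSG00000046480, GRCm38 chr9:45138395-45154152), was at 31.8, 47.7 and 55.2 CPM after fear and 6.45, 8.13 and 7.44 CPM in the home cage. Every fear library lay far above every home cage library, and the rise of 2.65 ± 0.21 (adjusted p = 6.13e-05) was called in every setting. The context libraries, which share these home cage controls, had a mean of 20.7 CPM. Scn8a, the main sodium channel of axon initial segments, was at 555, 474 and 532 CPM against 303, 384 and 366 CPM (0.61 ± 0.10, adjusted p = 0.00368). Of 13 sodium channel genes 4 rose and 2 fell, and the median change was 0.01, near that of all genes. The count that rose was 2 without fear 2, fear 3 or home cage 2.

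Of 60 potassium channel genes, 18 rose and none fell (median 0.29). Kcna1 and Kcna2 encode axonal low-threshold channels. Kcna1 was at 267, 243 and 298 CPM after fear and 152, 156 and 150 CPM in the home cage (0.86 ± 0.10, adjusted p = 0.000439). Kcna2 was at 105, 90.6 and 89 CPM against 45.7, 57.2 and 51.3 CPM (0.93 ± 0.10, adjusted p = 0.000307). Kcnc1 encodes a high-threshold channel that shortens the action potential. It was at 203, 187 and 216 CPM against 119, 134 and 142 CPM (0.66 ± 0.09, adjusted p = 0.00142). Kcng4, a modifier subunit that is silent on its own, rose by 1.88 ± 0.30 (adjusted p = 0.00302) from 1.09, 1.52 and 1.58 CPM to 2.74, 6.41 and 6 CPM. Kcnh5, an ether-à-go-go channel, was at 5.29, 11.5 and 4.28 CPM against 1.53, 2.38 and 2.44 CPM (1.76 ± 0.35, adjusted p = 0.011). No fear value of these genes fell below a home cage value. The count that rose was 9 without fear 2, 10 without fear 3 or home cage 2 and 27 without home cage 3.

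Of 19 calcium channel genes, 8 rose and none fell (median 0.18). Cacna2d3, an auxiliary alpha2delta subunit, was at 222, 257 and 298 CPM after fear and 136, 142 and 128 CPM in the home cage (0.98 ± 0.13, adjusted p = 0.000858). Cacng2, which encodes the AMPA receptor partner stargazin, rose by 0.74 ± 0.11 (adjusted p = 0.0016), and Cacna1i, a low-threshold pore subunit, by 0.79 ± 0.11 (adjusted p = 0.00105). Of the 5 genes of HCN pacemaker channels and their partner, 3 rose, and Pex5l, the partner that traffics HCN channels, had the smallest p (0.50 ± 0.09, adjusted p = 0.00718). The count of calcium channel genes was 4 without fear 3 or home cage 2 and 5 without fear 1 or fear 2, and that of HCN genes was 1 without fear 2, fear 3, home cage 1 or home cage 2. With the oligodendrocyte covariate Scn4b, Scn8a, Kcna2 and Kcnc1 kept their call, and Kcna1, Kcng4, Kcnh5, Cacna2d3, Cacna1i, Cacng2 and Pex5l were at adjusted p values of 0.0507 to 0.206. In the fit of 36 libraries Scn8a was at 0.0555, Kcna2 at 0.0546, Cacna1i at 0.0858 and Pex5l at 0.159. With GC and length offsets Kcnc1 was at 0.0802 and Cacna1i at 0.0876, or at 0.0744 with the replicate block added.

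Genes of transmitter release contained the strongest rise by p. Of 47 synaptic vesicle release genes, 16 rose and 2 fell (median 0.26). Syt2, the fast calcium sensor of many inhibitory and hindbrain synapses (ENSMUSG00000026452, chr1:134646677-134762593), was at 70, 70.1 and 92.8 CPM after fear and 19.6, 20.4 and 22.5 CPM in the home cage. The groups were far apart, and the rise of 1.93 ± 0.16 (adjusted p = 6.13e-05) was called in every setting. Vamp1, the vesicle SNARE of fast synapses (ENSMUSG00000030337, chr6:125215551-125245964), was at 123, 153 and 165 CPM against 71.6, 74.4 and 71.9 CPM (1.06 ± 0.12, adjusted p = 0.0003). Rph3a, an effector of Rab3, rose by 0.78 ± 0.11 (adjusted p = 0.00147) and Syt12, a synaptotagmin without calcium binding, by 0.93 ± 0.15 (adjusted p = 0.00367). Cpne9, a copine, was at 9.32, 30.6 and 19.5 CPM against 5.36, 3.38 and 3.76 CPM (2.30 ± 0.38, adjusted p = 0.00524), with a wide spread among the fear libraries. The count that rose was 10, 7 and 6 without fear 1, fear 2 and fear 3, 8 without home cage 1 or home cage 2, and 25 without home cage 3. Under that covariate Vamp1, Rph3a, Syt12 and Cpne9 were at adjusted p values of 0.0585 to 0.364. With all 36 libraries Rph3a was at 0.0785 and Cpne9 at 0.171, and with block, GC and length offsets Cpne9 was at 0.0545.

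Neurofilament genes rose, as did some genes of the matrix net around fast-firing neurons. Of 15 genes of neurofilaments and the axonal cytoskeleton, 9 rose and 1 fell (median 0.47). Nefh, the heavy neurofilament, was at 61.1, 78 and 91.1 CPM after fear and 30.7, 31.5 and 38.2 CPM in the home cage (1.23 ± 0.15, adjusted p = 0.000439). Nefm, the medium one, was at 103, 122 and 136 CPM against 40.5, 55.3 and 60.6 CPM (1.25 ± 0.15, adjusted p = 0.000769). Nefl rose less, by 0.54 ± 0.09 (adjusted p = 0.00487), as did the alpha-internexin gene Ina, by 0.55 ± 0.09 (adjusted p = 0.00302), and Ank3, the scaffold of the initial segment, by 0.47 ± 0.08 (adjusted p = 0.00608). Fear and home cage values of all 5 genes were apart.

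Of 32 genes of perineuronal nets and matrix proteoglycans, 6 rose and 1 fell (median 0.10), where 5.68% and 3.88% of all tested genes did. Acan, the aggrecan core protein, was at 5.13, 6.23 and 6.85 CPM after fear and 2.11, 2.76 and 2.48 CPM in the home cage (1.35 ± 0.20, adjusted p = 0.00178). Hapln4, a link protein of nets, was at 102, 114 and 135 CPM against 55.7, 60.6 and 60.8 CPM (1.02 ± 0.12, adjusted p = 0.000349), and Tnr, the cross-linker tenascin-R, rose by 0.72 ± 0.13 (adjusted p = 0.00524). The counts that rose were 6 to 11 for the cytoskeleton and 3 to 9 for the matrix with 1 library left out, 3 for the matrix without fear 2, fear 3 or home cage 2. Under the oligodendrocyte covariate Tnr kept its call, and Nefh, Nefm, Nefl, Ina, Ank3, Acan and Hapln4 were at adjusted p values of 0.0507 to 0.171. The fit of 36 libraries put Nefl at 0.0765, Ank3 at 0.0566 and Tnr at 0.159.

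Markers of parvalbumin interneurons, which carry many of these proteins, did not move as 1 list. Of 10 such markers 4 rose (Syt2, Kcnc1, Ank1 and Pvalb) and Tac1 fell, with a median of 0.17. Their summed level was 758, 666 and 756 CPM after fear and 594, 644 and 602 CPM in the home cage. Pvalb, the calcium buffer that names these cells, was at 27.7, 42.7 and 43 CPM against 27.3, 14 and 17.8 CPM (0.98 ± 0.24, adjusted p = 0.0261). It lost its call without fear 2, fear 3, home cage 2 or home cage 3 (adjusted p = 0.0547 to 0.0931), and in the fit of 36 libraries (0.0684), without a filter (0.115), with the block (0.0575) and with the oligodendrocyte covariate (0.981). Gad1, the main enzyme of GABA synthesis, was at 456, 449 and 486 CPM against 318, 350 and 346 CPM (0.50 ± 0.09, adjusted p = 0.00627). It was at 0.0666 in the fit of 36 libraries and at 0.111 with the covariate. Gad1 is on a wider list of 10 interneuron markers, of which 2 rose and 0 fell (median 0.3, 9 members above 0). That list summed to 1270, 1101 and 1236 CPM after fear and 805, 1008 and 1062 CPM in the home cage. Its count that rose was 1 to 3 with 1 library left out. Ank1, the erythrocyte-type ankyrin, rose by 0.74 ± 0.12 (adjusted p = 0.00311) and was at 0.139 in the fit of 36 libraries and at 0.0589 with the covariate. In bulk tissue, more cells of a type and more RNA per cell cannot be told apart, and the part of these cells in the channel, vesicle and net genes was not tested.

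The oligodendrocyte covariate lowered the count of rises in each of these lists, while the median was above that of the fit without it in all but the delayed effectors. It left 2 rapid genes (median 0.60), 1 delayed effector (0.51), 0 MAP kinase inhibitors (0.48), 0 glucocorticoid-responsive genes (0.48) and 1 clock gene (0.33) called higher. It left 2 sodium (median 0.23), 4 potassium (0.47) and 0 calcium (0.56) channel genes, 1 HCN gene (0.91), 1 vesicle gene (0.31), 1 cytoskeletal gene (0.52) and 1 matrix gene (0.13) called higher.

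**Figure D3:**
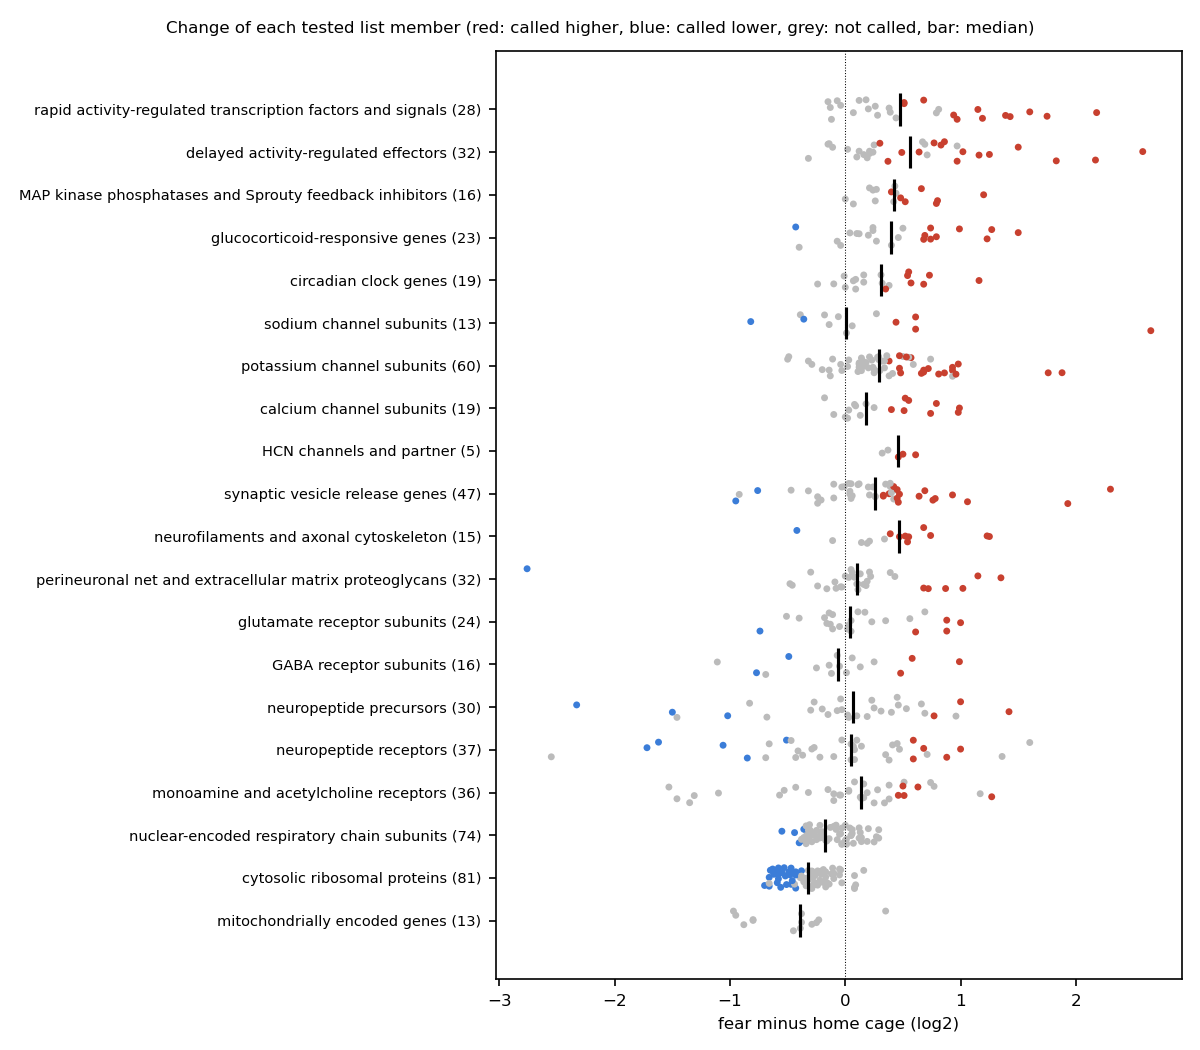
Change after fear in MEC (log2, horizontal axis) of the tested members of 20 gene lists of pathways and RNA quality (rows), 1 point a gene, with called genes coloured and the list's median as a bar. The medians of the lists drawn run from 0.57 for delayed effectors and 0.48 for rapid genes down to −0.32 for cytosolic ribosomal proteins and −0.39 for mitochondrially encoded genes.

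Several of the steadiest rises belonged to none of these lists. Slc24a2, a sodium, calcium and potassium exchanger of neurons (ENSMUSG00000037996, chr4:86983124-87230477), was at 853, 846 and 1001 CPM after fear and 413, 418 and 397 CPM in the home cage (1.17 ± 0.11, adjusted p = 8.68e-05). Mybpc1, a myosin-binding protein best known from slow muscle, was at 26.2, 34.2 and 37 CPM against 8.93, 7.68 and 5.97 CPM (2.16 ± 0.21, adjusted p = 0.000146). Cntn2, an adhesion molecule of axons, was at 146, 136 and 160 CPM against 71.3, 76 and 77.7 CPM (1.01 ± 0.10, adjusted p = 0.000146). Each group was tight, so that the gap between fear and home cage was wider than the range within either. Luzp1, a leucine zipper protein of the actin cytoskeleton, rose by 0.79 ± 0.08 (adjusted p = 0.000227). These 4 genes were called in every setting.

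Receptors and secretory proteins also rose. The ephrin receptor Epha4 was at 294, 354 and 354 CPM after fear and 164, 157 and 152 CPM in the home cage (1.12 ± 0.12, adjusted p = 0.000267), and Ephb1 rose by 1.01 ± 0.13 (adjusted p = 0.000951). Chgb, a granin of dense-core vesicles, was at 598, 702 and 743 CPM against 320, 353 and 374 CPM (1.00 ± 0.12, adjusted p = 0.000349). Of 24 glutamate receptor subunits 4 rose and 1 fell (median 0.04), where 5.68% and 3.88% of all tested genes did. The count that rose was 2 without fear 2, home cage 1 or home cage 2, 1 without fear 3 and 7 without home cage 3. Grin2a, the NMDA receptor subunit of mature synapses, was at 37.7, 29.6 and 29.8 CPM against 15.5, 18.6 and 20 CPM (0.88 ± 0.13, adjusted p = 0.00155), while the kainate receptor subunit Grik2 fell from 114, 126 and 95.4 CPM to 75.4, 62.5 and 57.1 CPM (−0.74 ± 0.12, adjusted p = 0.00407). In activin signalling the type I receptor Acvr1c rose by 1.15 ± 0.14 (adjusted p = 0.000552) and the type II receptor Acvr2a fell from 163, 199 and 149 CPM to 118, 86.4 and 89.2 CPM (−0.76 ± 0.14, adjusted p = 0.00638). With the oligodendrocyte covariate Grin2a kept its call, and Epha4, Ephb1, Chgb, Grik2, Acvr1c and Acvr2a were at adjusted p values of 0.0551 to 0.199. In the fit of 36 libraries Grin2a was at 0.132, Acvr1c at 0.224 and Grik2 at 0.0746.

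Several genes of peptide signalling were among the falls, but their lists moved in both directions. Of 30 neuropeptide precursors 3 rose and 3 fell, and of 37 neuropeptide receptors 5 rose and 5 fell, where 5.68% and 3.88% of all tested genes did. With 1 library left out the precursors gave 1 to 7 rises and 1 to 5 falls and the receptors 1 to 8 rises and 1 to 7 falls, lowest without fear 2, fear 3 or home cage 2 and highest without home cage 3 for rises. Trhr, the receptor of thyrotropin-releasing hormone (ENSMUSG00000038760, chr15:44196135-44235912), was at 9.4, 5.73 and 6.52 CPM after fear and 22.1, 25.7 and 20.8 CPM in the home cage. The groups were far apart, and the fall of −1.62 ± 0.17 (adjusted p = 0.000227) was called in every setting. Tac1, the precursor of substance P, was at 7.83, 6.95 and 5.5 CPM against 12.7, 15.4 and 14 CPM (−1.02 ± 0.16, adjusted p = 0.00302). Penk, the enkephalin precursor, was at 16.8, 8.73 and 8.1 CPM against 21.7, 43.5 and 32.7 CPM (−1.50 ± 0.33, adjusted p = 0.0171), and Nts, the neurotensin precursor, at 4.66, 0.997 and 1.32 CPM against 7.33, 16.8 and 11.4 CPM (−2.33 ± 0.49, adjusted p = 0.016). Both varied widely within each group. Penk lost its call without fear 2, fear 3, home cage 2 or home cage 3 (adjusted p = 0.0526 to 0.0703), and Nts without fear 3 (0.0607). Ntsr1, a receptor of neurotensin, rose by 0.88 ± 0.16 (adjusted p = 0.00638).

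**Figure D4:**
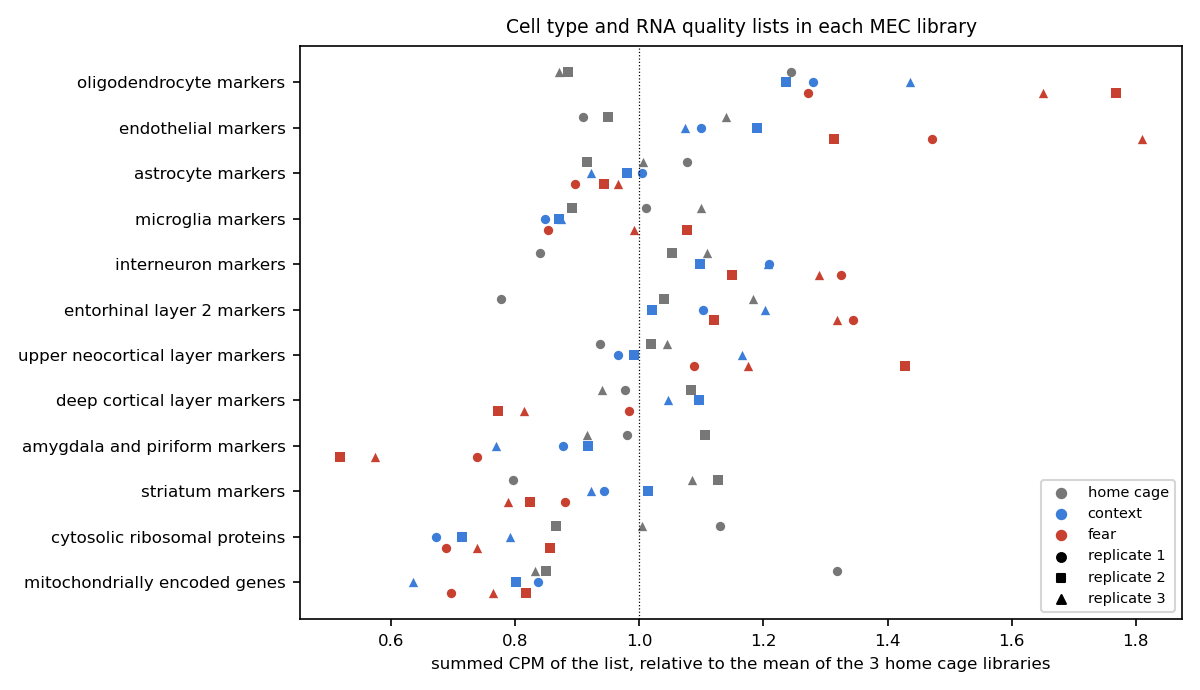
Summed CPM of each marker or quality list (rows) in each MEC library, relative to the mean of the 3 home cage libraries (horizontal axis), coloured by group with 1 symbol for each replicate. Oligodendrocyte markers span 2433 to 3383 CPM after fear and 1665 to 2381 CPM in the home cage, and amygdala and piriform markers 271 to 386 CPM against 479 to 578 CPM.

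The other steady falls were of mixed function. Hopx, a small homeodomain protein, was at 21.2, 20.2 and 22.4 CPM after fear and 47.8, 37.2 and 35.5 CPM in the home cage (−0.88 ± 0.13, adjusted p = 0.0019). Zfp40, a zinc-finger protein, and Nsmce1, a subunit of the SMC5/6 complex, fell by 0.94 ± 0.15 (adjusted p = 0.00302) and 0.88 ± 0.14 (adjusted p = 0.00311) on the log2 scale. These 3 genes were called in every setting. Nnat, the imprinted gene of neuronatin, was at 158, 118 and 122 CPM against 246, 240 and 246 CPM (−0.84 ± 0.12, adjusted p = 0.0014). Glra2, a glycine receptor subunit, was at 16.2, 11.1 and 10.4 CPM against 26.6, 29.7 and 25.4 CPM (−1.07 ± 0.16, adjusted p = 0.00186). Col23a1, a membrane collagen, fell by 1.12 ± 0.15 (adjusted p = 0.00103), and Synpr, a vesicle membrane protein, by 0.80 ± 0.13 (adjusted p = 0.00296) on the same scale.

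Dcn, which encodes the matrix proteoglycan decorin, was at 93, 43.1 and 60.1 CPM after fear and 166, 172 and 138 CPM in the home cage (−1.24 ± 0.22, adjusted p = 0.00627). It is also on the list of amygdala and piriform markers, of which 3 of 7 tested fell and none rose (median −0.2, 3 members above 0). Dcn is on the mural and meningeal list too, where 1 of 12 rose and 1 fell (median 0.29). Lmo3, another of the amygdala and piriform falls, is also an entorhinal layer 2 marker. The summed level of amygdala and piriform markers was 386, 271 and 300 CPM after fear and 513, 578 and 479 CPM in the home cage. Of 8 striatum markers 2 fell, Penk and Tac1, and none rose (median −0.05, 4 members above 0). Of 11 deep cortical layer markers 3 fell and none rose (median −0.34), where 3.88% of all tested genes fell. Of 10 upper neocortical layer markers 5 rose and 1 fell (median 0.68), with a summed level of 539, 707 and 582 CPM after fear and 464, 504 and 517 CPM in the home cage, and the count that rose was 1 without fear 3 and 3 without home cage 2. Without fear 2, fear 3 or home cage 2 the falls were 1 amygdala and piriform marker, 1 striatum marker and 0 deep layer markers, and without home cage 1 there was 1 deep layer fall. The part of tissue from beside the MEC, or of its layers, in the results was not tested. With the oligodendrocyte covariate Tac1, Penk, Nts, Ntsr1, Nnat, Glra2, Col23a1, Synpr and Dcn were at adjusted p values of 0.0823 to 0.552. With all 36 libraries Nnat, Synpr, Dcn, Nts and Ntsr1 were at 0.0903 to 0.238. Without a filter Dcn was at 0.0536, Penk at 0.104 and Nts at 0.0955, and with GC and length offsets Penk was at 0.0753 and Nts at 0.0913. The replicate block put Penk at 0.0696 and Nts at 0.0624, and with the offsets added at 0.113 and 0.17.

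Markers of glia and vessels differed between the groups beside these genes. Of 10 oligodendrocyte markers 5 rose and none fell (median 0.68). Mag, a myelin adhesion protein, was at 72.2, 107 and 101 CPM after fear and 40.8, 34.2 and 41.6 CPM in the home cage (1.30 ± 0.17, adjusted p = 0.000951). Mbp, myelin basic protein, was at 847, 1318 and 1128 CPM against 755, 558 and 698 CPM (0.75 ± 0.17, adjusted p = 0.0171), with fear 1 closest to the home cage. Mbp lost its call without fear 2, fear 3 or home cage 2 (adjusted p = 0.0618 to 0.0704). The count of oligodendrocyte markers that rose was 1 in each of these fits and 9 without home cage 1. Of 10 endothelial markers 5 rose, among them Ly6c1, a surface protein of vessel cells (1.00 ± 0.16, adjusted p = 0.00302), with a summed level of 178, 159 and 219 CPM after fear and 110, 115 and 138 CPM in the home cage. The count of endothelial markers was 1 without fear 3, 2 without home cage 1 or home cage 2 and 3 without fear 1. Astrocyte markers summed to 5857 to 6316 CPM after fear and 5986 to 7039 CPM in the home cage, and 2 fell. The fit of 36 libraries put Mag at 0.0589, Mbp at 0.263 and Ly6c1 at 0.0533, with GC and length offsets Mbp was at 0.0785, with the block added at 0.155, and the covariate, which takes up these genes by its construction, left no oligodendrocyte marker called and Ly6c1 at 0.0811. The part of these cells in the results was not tested beyond the covariate.

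All 10 entorhinal layer 2 markers were tested, and none was at 0 over the 6 fear and home cage libraries together. Wfs1 is also on the CA1 list, and Calb1, Cux1 and Cux2 are on the upper neocortical list. The 10 markers therefore do not check the dissection. They summed to 1166, 971 and 1143 CPM after fear and 674, 901 and 1026 CPM in the home cage, with 4 rises and 2 falls, or none without fear 3. Choroid plexus markers summed to 5.69 to 7.13 CPM in 5 of the 6 libraries and to 78 CPM in home cage 2, where the transthyretin gene Ttr alone was at 66.5 CPM. Blood markers were highest in home cage 3, at 98.3 CPM against 24 to 58.3 CPM in the others.

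Of 81 cytosolic ribosomal protein genes 29 fell and none rose (median −0.32), among them Rpl26, a large-subunit protein, at 175, 212 and 177 CPM after fear and 367, 272 and 274 CPM in the home cage (−0.66 ± 0.13, adjusted p = 0.00813). Their summed level was 8607, 10693 and 9237 CPM against 14114, 10816 and 12553 CPM, so that fear 2 and home cage 2 nearly met. The count that fell was 4, 15 and 0 without fear 1, fear 2 and fear 3, 11 without home cage 1 and 17 without context 2. Rpl26 was at 0.0568 without fear 3 and at 0.0836 in the fit of 36 libraries. Of 74 nuclear-encoded respiratory chain subunits 5 fell (median −0.18), where 3.88% of all tested genes fell. At most 1 fell with any library but home cage 3 left out. Without home cage 3 it was 23, in a fit where 1911 of all genes fell. Of 13 mitochondrially encoded genes none was called (median −0.39), with a sum of 82519 CPM in home cage 1 against 52081 to 53207 CPM in the other home cage libraries and 43586 to 51162 CPM after fear. These short and mitochondrial transcripts vary with RNA quality and preparation, and the part of either was not tested.

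The genes in the series title, which encode the secreted synapse organizer cerebellin 4 and its receptor neogenin, were not called. Cbln4 was at 102, 78.9 and 116 CPM after fear and 87.4, 83.6 and 102 CPM in the home cage (0.16 ± 0.16, adjusted p = 0.525). Neo1 was at 162, 139 and 145 CPM against 122, 150 and 132 CPM (0.18 ± 0.10, adjusted p = 0.223). The groups overlapped for both genes.

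The change in MEC was then set against the mean change in LEC, CA1 and CA3 in the fit of 36 libraries. Of 17875 genes tested, 4 (0.0224%) differed, and 1203 had an unadjusted p under 0.05. The count was 17 without fear 1 and 2 without fear 2, fear 3 or home cage 2 of MEC. For Scn4b the change after fear was 2.68 ± 0.27 in MEC, 0.32 ± 0.28 in LEC, 0.79 ± 0.25 in CA1 and 0.47 ± 0.26 in CA3, a difference of 2.15 ± 0.31 (adjusted p = 0.00077). For Vamp1 it was 1.08 ± 0.12 in MEC, −0.08 ± 0.12 in LEC, 0.33 ± 0.12 in CA1 and 0.18 ± 0.12 in CA3, a difference of 0.94 ± 0.14 (adjusted p = 0.00077). Both genes rose in MEC, and in the other regions neither was called.

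The other 2 genes also moved in MEC. Hr, a nuclear corepressor and histone demethylase (ENSMUSG00000022096, chr14:70552212-70573548), was at 19.3, 23.9 and 27.6 CPM after fear and 7.47, 7.1 and 10.3 CPM in the home cage of MEC. Its change was 1.56 ± 0.25 in MEC, 0.26 ± 0.26 in LEC, −0.01 ± 0.25 in CA1 and −0.32 ± 0.25 in CA3, a difference of 1.59 ± 0.29 (adjusted p = 0.0271). This difference lost its call without fear 2, fear 3, home cage 1 or home cage 2 of MEC (adjusted p = 0.152 to 0.28) and with the replicate block (0.0735). Zcchc12, a neuronal zinc-finger protein (ENSMUSG00000036699, chrX:36195904-36199158), was at 62.7, 36.7 and 30.5 CPM after fear against 78.1, 116 and 91.5 CPM, and its change of −1.07 ± 0.17 in MEC stood against 0.04 ± 0.17 in LEC, −0.08 ± 0.18 in CA1 and 0.17 ± 0.18 in CA3 (difference −1.11 ± 0.20, adjusted p = 0.026). The difference for Zcchc12 lost its call without fear 2, fear 3, home cage 2 or home cage 3 of MEC (adjusted p = 0.0542 to 0.322) and with the replicate block (0.0735), while those for Scn4b and Vamp1 were called in all 10 alternatives. In the fit of MEC alone Zcchc12 lost its call without fear 2 (adjusted p = 0.0508) or fear 3 (0.0503), without a filter (0.084), with GC and length offsets (0.0568, or 0.0929 with the block added) and with the oligodendrocyte covariate (0.362), and Hr with that covariate (0.0793). Kcng4 came next in this contrast with a difference of 1.70 ± 0.33 (adjusted p = 0.0562). Egr1 rose by 1.41 ± 0.27 in MEC, and its change was 1.19 ± 0.27 in LEC, 1.13 ± 0.27 in CA1 and 0.72 ± 0.27 in CA3, with a difference of 0.39 ± 0.31 (adjusted p = 0.802).

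**Figure D5:**
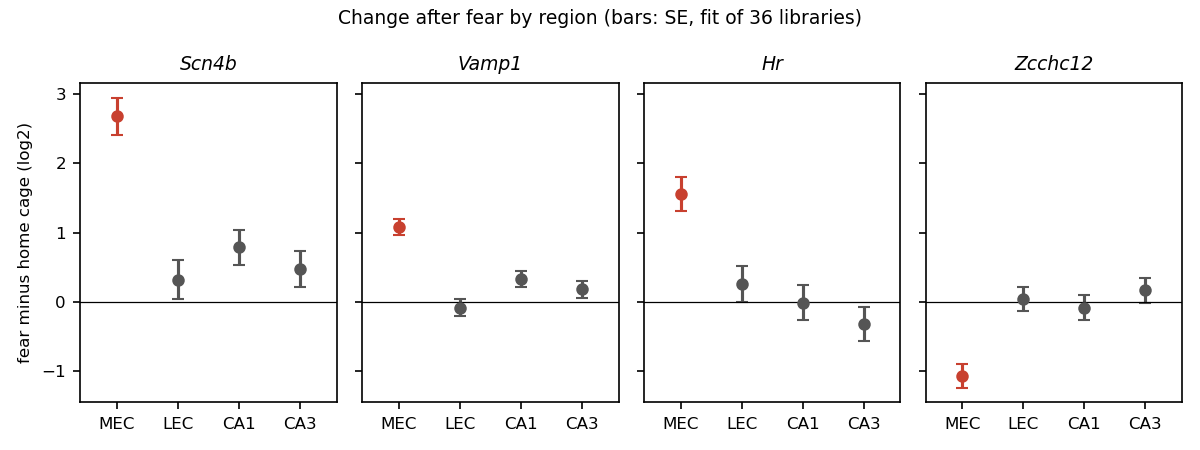
Change after fear (log2, vertical axis, bars are standard errors) in MEC, LEC, CA1 and CA3 from the fit of 36 libraries, for the 4 genes whose change in MEC differed from the mean of the other regions. Scn4b stands at 2.68 in MEC and at 0.32 to 0.79 elsewhere, and Zcchc12 at −1.07 in MEC and between −0.08 and 0.17 elsewhere.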

How the data were processed

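PolyA RNA of MEC was sequenced from TruSeq Stranded mRNA libraries after TRIzol extraction, per the labels' protocols. The authors deposited whole-number counts of reads for each gene. Per the submitters' processing notes, Trimmomatic 0.33, STAR 2.7.10b and HTSeq 2.0.1 were used with mm10. Not given in the sources used here are their settings, the annotation release and the use of strand. Overlapping genes, antisense genes and close copies are therefore uncertain. All 37315 lines of the count table named a gene, and GENCODE M21 (GRCm38) gave 35533 (95.2%) a symbol.

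Groups came from the tissue and treatment labels. The 9 MEC libraries (25530671 to 68974340 counts) were filtered with filterByExpr, scaled by TMM and fitted with the robust quasi-likelihood model of edgeR (group means, 6 residual degrees of freedom), and fear was contrasted with home cage. The contrast with the other regions came from all 36 libraries (24 residual degrees of freedom). Changes are fitted log2 differences with standard errors. Replicates differed by more than sampling noise, with a chi-square per degree of freedom of 10.6 or more.

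The rule for naming took the 15 rises and 15 falls of largest size (called, without overlap, at 1 log2 CPM or more on average), the 10 of smallest p in each direction, the 5 called members of smallest p in each of 51 gene lists, the 8 of smallest p in the contrast with other regions, and Cbln4 and Neo1. The text prints a part of them. The comparison, the lists and this rule were chosen with earlier results of these data known, so list counts are descriptions and were not tested.

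Alternatives were RLE size factors, no filter, the replicate number as a block, natural splines for GC content and length (5 degrees of freedom), DESeq2, the 6 or 36 libraries, the mean log2 CPM of oligodendrocyte markers as a covariate, home cage 3 thinned to 27976173 counts and each library left out. List counts without each library were added after seeing the data. The procedure was tested on simulated data. Promoter sequences were read from a RefSeq table of GRCm38.p6. The tools were edgeR 4.0.16 and DESeq2 1.42.0 with limma 3.58.1 in R 4.3.3, and pandas 2.3.3, numpy 2.4.6 and matplotlib 3.10.9 in Python 3.11.15.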

Additional observations from a re-analysis of the deposited data

Results flagged for a closer look

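The change after fear in MEC differed from its mean in LEC, CA1 and CA3 for 4 genes, by edgeR's quasi-likelihood test of that difference over 17875 genes in the fit of 36 libraries. The differences were 2.15 ± 0.31 for Scn4b (log2, standard error; adjusted p = 0.00077), 0.94 ± 0.14 for Vamp1 (adjusted p = 0.00077), 1.59 ± 0.29 for Hr (adjusted p = 0.0271) and −1.11 ± 0.20 for Zcchc12 (adjusted p = 0.026). Scn4b and Vamp1 kept this call in all 10 alternatives, and Hr and Zcchc12 each lost it in 5 of them, the replicate block included (adjusted p = 0.0735 for both), with adjusted p values of up to 0.28 for Hr and 0.322 for Zcchc12. Each contrast sets 3 fear against 3 home cage libraries in every region.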

How the results depend on the processing

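With 1 MEC library left out, 306 to 4486 genes were called for fear against home cage and 2 to 17 for MEC against the other regions; the cause was not tested. Other counts for fear against home cage were 2447 with DESeq2, 951 with the 6 libraries, 239 with 36 libraries and 171 with the oligodendrocyte covariate. DESeq2 gave 29 genes for MEC against the other regions. RLE size factors (1556), no filter (2060), GC and length offsets (1895) and home cage 3 thinned (1618) stayed within 1.5 times of 1559. A similar total did not mean the same genes. With GC and length offsets 1088 of the 1559 calls were kept and 3 genes changed sign. The median absolute change over the 1559 was 0.423 with these offsets and 0.572 without. The share of rises among calls was 59.4%, 43.9% with the covariate, 68.6% with 36 libraries, and 57.4% to 82.7% with 1 library left out (highest without fear 3). No setting turned the sign of any of the 83 named genes that were called. Of these, 64 lost the call with the covariate and 32 in the fit of 36 libraries. Where 1 library was left out, its group of 2 shared the spread of the other groups.

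Deviations of fear and home cage libraries of the same number had correlations of 0.025, −0.00741 and 0.134 over 16314 genes. Those of unlike numbers ran from −0.168 to 0.166, and context was not part of this check. The labels do not tie a number to a mouse, so the numbers were not taken as pairs. On the first principal component library 1 was the lowest of each group, at −15.3 for context, 16.1 for fear and −41.2 for home cage. An effect shared by libraries of 1 number was not tested further. A block for the number gave 3783 calls (2137 rises, 1646 falls), 2429 with GC and length offsets added, and 2 for MEC against the other regions. With the block the median standard error of the 1559 called genes was 0.107, against 0.133 without it.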

Other observations

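Genes on the X chromosome fell more often than they rose in MEC after fear. Of 596 tested, 20 rose and 53 fell (8.89% against 3.88% of all tested genes), with a median change of −0.183, the lowest of any nuclear chromosome but Y. The genes called whichever library was left out were 217 rises and 41 falls over all chromosomes. Of these, Plxnb3, Trpc5, Bcor and Tsc22d3 on X rose, and Glra2, Smarca1, Stk26 and Vegfd on X fell. In the fit without a library left out, 633 genes of all chromosomes fell, and 53 did without fear 3. On the Y chromosome 2 of 7 tested genes fell, and neither was called without fear 2, fear 3, home cage 1 or home cage 2. The difference from the other chromosomes was not tested.

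Few non-coding transcripts rose, where 5.68% of all tested genes rose and 3.88% fell. Among 383 genes annotated as antisense 2 rose (0.522%) and 16 fell (4.18%), among 206 lincRNA genes 2 rose (0.971%) and 14 fell (6.8%), and of 369 processed pseudogenes 0 rose and 0 fell. Since the strand setting of the counting is not given in the sources used here, antisense genes may hold reads of their partners.

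Antigen receptor constant regions, chosen after their values were seen, were all 3 called. Ighm, the constant region of immunoglobulin M, was at 11.2, 20.1 and 20.6 CPM after fear and 10.7, 7.51 and 8.25 CPM in the home cage (1.01 ± 0.26, adjusted p = 0.0322 by edgeR's quasi-likelihood test). Trbc2, of the T cell receptor, was at 0.94, 3.85 and 0.922 CPM against 0.474, 0.241 and 0.333 CPM (2.49 ± 0.60, adjusted p = 0.0224). Ighg2c, of immunoglobulin G, was at 0.666, 1.67 and 0.758 CPM against 0.292, 0.172 and 0.42 CPM (1.76 ± 0.52, adjusted p = 0.0471). Without fear 2 the adjusted p was 0.102 for Ighm, 0.142 for Trbc2 and 0.216 for Ighg2c, and without home cage 2 it was 0.0972, 0.0766 and 0.144. Ighm was also at 0.121 without fear 3, Trbc2 at 0.0517 without home cage 1, and Ighg2c lost its call with every library left out but context 3 and home cage 3 (0.0531 to 0.216). With the oligodendrocyte covariate the adjusted p was 0.956 for Ighm, 0.678 for Trbc2 and 0.607 for Ighg2c. In the fit of 36 libraries it was 0.235 for Trbc2 and 0.281 for Ighg2c, with 6 libraries 0.062 for Ighg2c and without a filter 0.0553 for Ighm.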
